A study of Mus musculus with 26 samples.

Results

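The genes described are Scx, Mkx, Tnmd, Thbs2, Thbs4, Fmod, Kera and Chodl, 7 genes of the tendon programme and 1 membrane lectin found beside them. They were taken by gene symbol from 2 deposited expression tables, which gives 8 genes of the 24340 that each table lists. All 8 averaged at least 1 FPKM in both tables, so all 8 were tested everywhere. The unit is FPKM, a fragment count corrected for transcript length and for library size.

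Tendon progenitors of the limb arise from mesenchyme and first express Scx, the gene of the basic helix-loop-helix factor scleraxis. Mkx, the gene of the homeobox factor Mohawk, acts with it as these cells differentiate, and Tnmd, which encodes the transmembrane glycoprotein tenomodulin, is a late marker of the same cells. The matrix that they lay down is collagen fibrils, whose spacing and growth are shaped by thrombospondins (Thbs2, Thbs4) and by small leucine-rich proteoglycans such as fibromodulin (Fmod) and keratocan (Kera). Chodl encodes chondrolectin, a transmembrane C-type lectin best known from muscle and motor neurons.

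The study sequenced polyA RNA from mouse forelimbs of E13.5 embryos (the embryonic stage in days) in 26 libraries, to compare ways of removing Hic1, which encodes a zinc-finger transcriptional repressor. In the conventional strategy the null allele is present in every cell: 3 libraries were Hic1 -/- (knockout), 3 were Hic1 +/- (heterozygote) and 3 were Hic1 +/+ (wild type). In the conditional strategy the Cre recombinase is driven by Prrx1, whose regulatory sequence is active in limb bud mesenchyme: 7 libraries were PxCre; Hic1 f/f (knockout), 5 were PxCre; Hic1 f/+ (heterozygote) and 5 were Hic1 f/+ with no Cre in the label (control). The labels call that last group wild type although it carries a floxed allele. Cre is present in both other conditional groups, so for the knockout against control the presence of Cre, the number of floxed alleles and the loss of Hic1 cannot be told apart. Nothing in the labels ties a replicate to its own embryo or litter, and p-values measure only the spread between these libraries, which may be technical. The 2 tables were deposited separately, so levels were not tested across them.

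Hic1 followed the labels. It had 1.70 ± 0.748 FPKM in the conventional knockout against 56.5 ± 7.56 FPKM in wild type (SD, n = 3 each), and 4.82 ± 1.13 FPKM in the conditional knockout (n = 7) against 60.6 ± 5.52 FPKM in control (n = 5). Heterozygotes had 33.5 ± 3.42 FPKM (conventional, n = 3) and 31.9 ± 2.52 FPKM (conditional, n = 5). Absolute depth is not given. Library sums lay between 410482 and 490248 FPKM for the conventional strategy and between 436559 and 497121 FPKM for the conditional one. The step of 1 fragment at low values differed by up to 1.296-fold between conventional and 1.913-fold between conditional libraries. Conventional knockout replicate 1 stood apart: its median correlation with the other 8 libraries was 0.869, where the lowest of the other libraries had 0.970, and its values are given apart below. Column names carry letters of unstated meaning: CH for replicate 1 and CL for replicates 2 and 3 of each conventional group, and NZ, OA, OB or OC in the conditional table. Of the conditional libraries, 5 of 7 knockouts but 1 of 5 controls are lettered OB, and OC occurs only among controls. Letters and genotype are therefore partly mixed in the conditional knockout against control. All tendon markers (Scx, Tnmd and Mkx) were above 0 in all 26 libraries.

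Promoter sequence is shown for Thbs4, Thbs2 and Tnmd, the members whose knockout levels were the lowest relative to wild type in the conventional table by mean FPKM. Each line runs 5′ to 3′ on the gene's strand and lies before the start of the gene in both annotations used, RefSeq and GENCODE. The sequences are from RefSeq, build GRCm38.p6, and capitals mark an E-box, the letters CANNTG that basic helix-loop-helix factors such as scleraxis bind. The Thbs4 stretch is chr13:92794819-92795068 on the minus strand, the Thbs2 stretch is chr17:14694263-14694512 on the minus strand, and the Tnmd stretch is chrX:133850758-133850979 on the plus strand.
Thbs4: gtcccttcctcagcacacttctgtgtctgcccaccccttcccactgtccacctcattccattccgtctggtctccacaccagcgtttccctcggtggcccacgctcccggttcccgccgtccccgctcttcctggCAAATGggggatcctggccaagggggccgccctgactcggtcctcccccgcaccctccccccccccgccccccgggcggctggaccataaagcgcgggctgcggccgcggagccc
Thbs2: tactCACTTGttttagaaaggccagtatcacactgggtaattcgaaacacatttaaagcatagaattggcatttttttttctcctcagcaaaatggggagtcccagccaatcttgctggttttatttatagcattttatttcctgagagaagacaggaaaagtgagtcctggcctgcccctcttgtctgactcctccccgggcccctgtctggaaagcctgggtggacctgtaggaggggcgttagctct
Tnmd: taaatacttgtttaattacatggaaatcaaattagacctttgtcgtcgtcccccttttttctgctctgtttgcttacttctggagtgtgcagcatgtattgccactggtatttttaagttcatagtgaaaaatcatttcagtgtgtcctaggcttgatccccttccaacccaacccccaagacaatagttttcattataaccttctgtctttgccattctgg
The Thbs4 and Thbs2 stretches hold 1 E-box each and the Tnmd stretch holds 0. In windows of 300 bases, searched on both strands, CANNTG occurred 4 times for Chodl, 2 times each for Thbs2 and Thbs4, 1 time for Fmod, and 0 times for Kera and Tnmd, where 72.3% of all 32851 RefSeq windows hold it at least once. The E-box form CACCTG occurred 1 time for Thbs4, against 20.2% of windows with a match, and CAGCTG occurred in none of the 6 member windows, against 16.3%. The letters TGCCA or TGCCC, known as the core of HIC1 binding sites, occurred 4 times for Thbs4, 3 times for Chodl, 2 times each for Thbs2, Tnmd and Fmod, and 0 times for Kera, where 76.0% of windows hold one. These are letter matches and not measured sites.

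The members differed widely in level and the order was not the same in the 2 tables. FPKM is per transcript length, so genes can be set side by side within a table. In the conventional table, wild type means ran downward from 51.4 FPKM for Scx through 39.8 for Kera, 33.3 for Fmod, 25.1 for Chodl, 22.9 for Mkx, 20.2 for Thbs4 and 15.8 for Thbs2 to 12.3 for Tnmd. The wild type ranges of Scx and Kera do not overlap (43.3 to 59.0 against 36.0 to 42.3 FPKM), while those of Kera and Fmod, Fmod and Chodl, Chodl and Mkx, Mkx and Thbs4, Thbs4 and Thbs2, and Thbs2 and Tnmd overlap. In the conditional table, control means ran downward from 86.3 FPKM for Kera through 62.2 for Scx, 28.4 for Chodl, 23.01 for Fmod, 21.9 for Tnmd, 20.3 for Mkx and 18.4 for Thbs4 to 12.4 for Thbs2. The control range of Scx, 51.8 to 69.7 FPKM, overlaps that of Kera, 52.7 to 117 FPKM, and is clear of that of Chodl, 13.9 to 37.3 FPKM; all later neighbours in the order overlap. Tnmd varied most among controls, with a coefficient of variation of 53.6%, and Mkx least, with 5.65%.

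**Figure D1:**
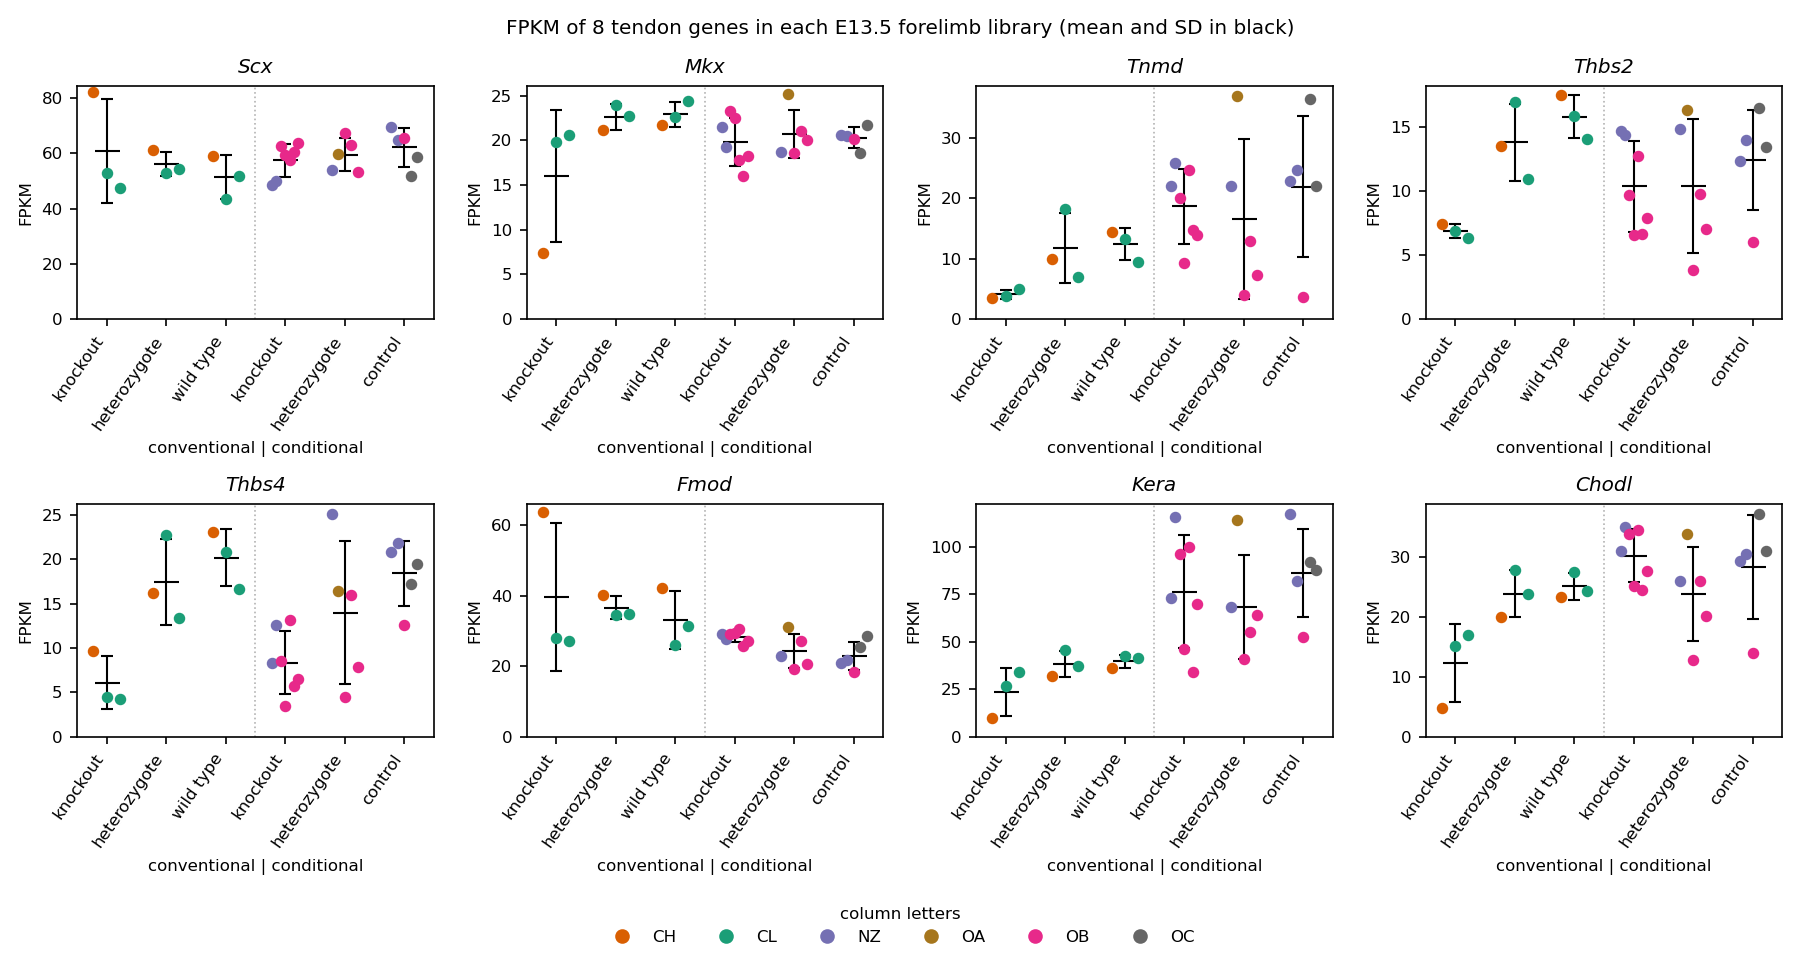
FPKM of each member (y axis, linear) in each library, by genotype group (x axis; conventional left of the dotted line, conditional right), with points coloured by column letters and black bars for mean and SD. The conventional knockout points of Tnmd, Thbs2 and Thbs4 lie below all wild type points, at most 4.92, 7.41 and 9.62 FPKM, while the conditional points of Tnmd run from 3.66 to 36.9 FPKM with all groups overlapping.

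Conventional knockout against wild type asks how the tendon genes stand when all cells lack Hic1. Below every wild type library lay 6 of the 8 members, and the other 2, Scx and Fmod, overlapped wild type. Thbs4 was at 30.3% of wild type, Tnmd at 32.9%, Thbs2 at 43.4%, Chodl at 49.1%, Kera at 59.0% and Mkx at 69.6%, as ratios of mean FPKM. Over all genes tested, 7.86% lay below every wild type library in the same way and 6.57% above. None of the 8 was called by limma at an adjusted p under 0.05, where 3 of 12717 genes were called (0.0236%, of which 0.0157% rose and 0.00786% fell). Without adjustment, 5 of the 8 members had p under 0.05, each below wild type (Tnmd, Thbs2, Thbs4, Kera and Chodl), against 7.06% of all genes. The members were chosen with earlier results of these data known. Their shares beside those of all genes, here and below, are therefore descriptions and not a test of the set. In a bulk library, fewer tendon cells and less RNA per cell cannot be told apart.

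Among the transcription factors, Scx (chr15:76457452-76459458, plus strand, mm10) had 82.4, 53.0 and 47.3 FPKM in knockout libraries 1, 2 and 3, against 59.0, 43.3 and 51.9 FPKM in wild type. Knockout replicate 1 was the highest of these 6 libraries, and the other knockouts lay within the wild type range. The log2 fold change was 0.21 ± 0.21 (SE; limma adjusted p = 0.602), on the log2(FPKM + 1) scale used for every fold change below, which understates changes of low genes. Scx lies inside Bop1, a ribosome biogenesis gene on the opposite strand, and 0 of its 3 exons overlap a Bop1 exon. Bop1, which was named after its values were seen, had 49.2, 27.2 and 28.2 FPKM in the knockouts against 28.8, 26.9 and 26.7 FPKM in wild type, so it too was highest in knockout replicate 1; the strand setting of the counting is not given, and its part in the Scx value was not tested. Mkx, on chromosome 18, had 7.43, 19.8 and 20.6 FPKM in the knockouts against 21.7, 22.6 and 24.4 FPKM in wild type. Replicate 1 was far below, and the other knockouts lay just under the lowest wild type library (log2 fold change -0.61 ± 0.32, adjusted p = 0.596).

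Tnmd (chrX:133850980-133865577, plus strand) had 3.44, 3.81 and 4.92 FPKM in knockout libraries against 14.5, 13.2 and 9.39 FPKM in wild type. All 3 knockouts were low and close together, and the groups did not overlap. Tnmd had a log2 fold change of -1.39 ± 0.31 (limma adjusted p = 0.358; rank 66 of 12717 genes by p).

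Thrombospondins gave the lowest p-values among the members. Thbs4, on chr13:92751590-92794818 (minus strand), had 9.62, 4.45 and 4.28 FPKM in knockout libraries against 23.1, 20.9 and 16.7 FPKM in wild type. Thbs2, on chr17:14665500-14694235 (minus strand), had 7.41, 6.85 and 6.33 FPKM in knockout libraries against 17.5, 15.9 and 14.1 FPKM in wild type. Every knockout value of either gene was clear of the wild type range, and Thbs2 was the most even member among knockouts, with a coefficient of variation of 7.90%, against 10.8% in wild type. Fold changes were -1.64 ± 0.30 (log2) for Thbs4 (limma adjusted p = 0.251) and -1.09 ± 0.16 for Thbs2 (adjusted p = 0.169; rank 9 of 12717 genes by p).

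Neither small leucine-rich proteoglycan was called. Kera (chr10:97606879-97613692, plus strand) had 9.78, 26.4 and 34.2 FPKM in the knockouts against 36.0, 42.3 and 41.2 FPKM in wild type (log2 fold change -0.90 ± 0.39, limma adjusted p = 0.596). Fmod (chr1:134037254-134048277, plus strand) had 63.8, 28.0 and 27.2 FPKM in the knockouts against 42.2, 26.02 and 31.5 FPKM in wild type (0.16 ± 0.32, adjusted p = 0.774). Knockout replicate 1 was the lowest library for Kera and the highest for Fmod, and the other knockouts of Fmod lay inside the wild type range. Without that library both fold changes were negative (-0.39 for Kera and -0.23 for Fmod). Chodl (chr16:78930948-78951733, plus strand) had 4.86, 15.1 and 17.05 FPKM in the knockouts against 23.4, 27.6 and 24.3 FPKM in wild type. Its knockouts were all lower than wild type, replicate 1 by the widest margin (log2 fold change -1.13 ± 0.38, adjusted p = 0.596).

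Several of these values changed without knockout replicate 1. Leaving it out, Thbs4 fell by 1.97 on the log2 scale and passed the test (limma adjusted p = 0.0425), 1 of 6 genes called of 12730 (0.0471%); Tnmd was at -1.30 (adjusted p = 0.226), Thbs2 at -1.14 (0.103), Chodl at -0.61 (0.175), Kera at -0.39 (0.457), Mkx at -0.17 (0.504), Fmod at -0.23 (0.743) and Scx at -0.026 (0.998). Chodl, Kera and Mkx thus had smaller fold changes, Scx and Fmod turned sign, and Thbs2 and Tnmd moved little. Within the CL libraries alone, 2 against 2, the log2 fold change was -1.87 for Thbs4, -1.18 for Tnmd and -1.07 for Thbs2, and none of the 8 members passed. With library weights from limma, Thbs4, Thbs2, Chodl, Kera and Tnmd passed (adjusted p = 0.00282, 0.00728, 0.0159, 0.0319 and 0.0343), among 980 of 12717 genes called, where 3 were called without weights. The weights came from limma's gene-by-gene method, because its other method (REML) did not converge. With the replicate number as a block, 0 members passed and 1 gene was called over the table.

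Relative to Scx within each library, the ratio of Thbs4 to Scx ran from 0.084 to 0.117 in knockouts and from 0.321 to 0.482 in wild type. For Thbs2 the ratio ran from 0.090 to 0.134 in knockouts and from 0.271 to 0.367 in wild type, and for Tnmd from 0.042 to 0.104 in knockouts and from 0.181 to 0.304 in wild type. For Chodl the ratio ran from 0.059 to 0.360 in knockouts and from 0.396 to 0.637 in wild type. These 4 of 7 ratios lay below every wild type library, as did 8.66% of the ratios of all genes tested to Scx. The ratios of Kera (0.119 to 0.723 in knockouts, 0.609 to 0.976 in wild type), Mkx (0.090 to 0.435 in knockouts, 0.367 to 0.523 in wild type) and Fmod (0.529 to 0.774 in knockouts, 0.601 to 0.715 in wild type) overlapped. Of the conditional ratios, 0 of 7 were clear of control, where 0.0852% of all genes lay below it and 0.434% above. The ratios are descriptions with no test.

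Conventional heterozygotes lay near wild type, and the knockouts were set against them as well. In heterozygote libraries 1, 2 and 3, Tnmd had 9.96, 18.3 and 7.01 FPKM, Thbs2 had 13.47, 17.0 and 10.95 FPKM, and Thbs4 had 16.2, 22.8 and 13.4 FPKM. Heterozygote replicate 2 was the highest of its group for 6 members, and replicate 3 the lowest for these 3 genes, as wild type replicate 3 was in its own group. The other members had 52.9 to 61.3 FPKM (Scx), 21.1 to 24.0 (Mkx), 34.6 to 40.4 (Fmod), 31.8 to 45.6 (Kera) and 20.0 to 27.8 (Chodl) in heterozygotes. In heterozygote against wild type, 0 of 12717 genes were called by limma (0%; 47 at an unadjusted p under 0.05, and 1 with library weights), no member passed at an unadjusted p under 0.05, and the members' log2 fold changes ran from -0.22 for Thbs4 to 0.16 for Fmod. No member was clear of the wild type range in the heterozygote, where 1.38% of all genes lay below every wild type library and 2.43% above. In knockout against heterozygote, 5 of the 8 members lay below every heterozygote library (Mkx, Tnmd, Thbs2, Thbs4 and Chodl), where 6.21% of all genes did (3.72% lay above). None of the 8 was called, and 1 of 12717 genes was (0.00786%). On the log2 scale the change was -1.42 ± 0.30 for Thbs4, -1.25 ± 0.31 for Tnmd and -0.89 ± 0.16 for Thbs2 (limma adjusted p = 0.697, 0.697 and 0.608).

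**Figure D2:**
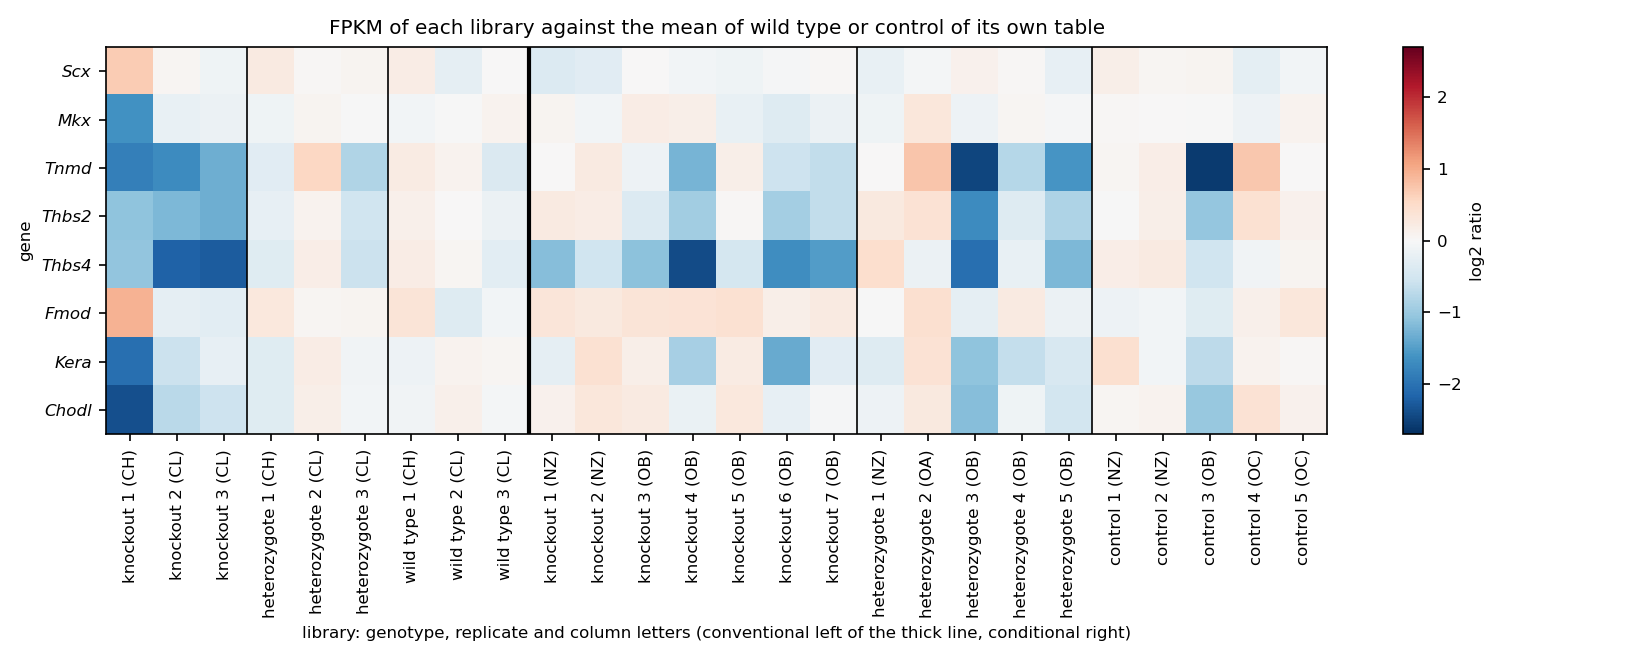
Log2 ratio of each library's FPKM (columns, grouped by genotype with replicate and column letters) to the mean of the wild type or control libraries of the same table, for the 8 members (rows); red is above that mean and blue below. The 3 conventional knockout columns are blue for Tnmd, Thbs2 and Thbs4, and among the conditional columns the deepest blue is Tnmd in heterozygote replicate 3 and control replicate 3 (3.92 and 3.66 FPKM), both lettered OB.

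Conditional knockout against control asks the same of limbs in which Prrx1-driven Cre removes Hic1. Thbs4 was at 45.3% of control and Fmod at 124% by mean FPKM, and both had an unadjusted p under 0.05; the other 6 members lay between 83.3% and 107% of control. None of the 8 was called by limma, where 34 of 12918 genes were (0.263%, made of 0.147% that rose and 0.116% that fell). Thbs4 and Fmod are 2 of 8 members under that unadjusted limit, against 6.21% of all genes. No member was clear of the control range in either direction, where 0.325% of all genes lay below every control library and 0.364% above.

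Thbs4 had a lowest value of 3.47, a median of 8.30 and a highest of 13.2 FPKM in the 7 knockouts, against 20.8, 21.9, 12.6, 17.2 and 19.5 FPKM in controls 1 to 5. All 7 knockouts were below the control mean and 6 of 7 were below every control; knockout replicate 5 exceeded control replicate 3. Its log2 fold change was -1.13 ± 0.33 (limma adjusted p = 0.280). Within the NZ libraries, 2 against 2, it was -0.99 (adjusted p = 0.164), within the OB libraries, 5 against 1, it was -0.79 (0.921), and with the letters as a term in the fit it was -0.81 (0.734). Leaving out single libraries gave -1.25 to -0.97, with adjusted p from 0.108 to 0.558.

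Thbs2 overlapped control in all its knockouts. It had a lowest value of 6.52, a median of 9.70 and a highest of 14.7 FPKM in knockouts, against 12.4, 13.9, 6.00, 16.5 and 13.4 FPKM in controls. The knockouts lay entirely inside the control range. For Thbs2 the log2 fold change was -0.24 ± 0.30 (limma adjusted p = 1), with a 95% interval from -0.87 to 0.39. Its sign turned with the letters as a term (0.30) and within the NZ (0.14) and OB (0.43) libraries.

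Tnmd was the most uneven member among conditional controls. It had a lowest value of 9.19, a median of 20.0 and a highest of 25.9 FPKM in knockouts, against 22.8, 24.7, 3.66, 36.4 and 22.05 FPKM in controls. Control replicate 3 was below every knockout and control replicate 4 above every knockout, so the control range enclosed the whole knockout group. The log2 fold change was -0.022 ± 0.49 (limma adjusted p = 1), with a 95% interval from -1.06 to 1.01. These libraries are compatible with changes of either sign within that interval, which is not adjusted for the number of genes and is no limit of detection. The log2 fold change was 0.0092 within the NZ libraries, 1.84 within the OB libraries, which hold 1 control, and 0.87 with the letters as a term.

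Fmod was the steadiest member among conditional knockouts and lay high in them. It had a lowest value of 25.7, a median of 29.1 and a highest of 30.7 FPKM in knockouts, against 21.1, 21.7, 18.4, 25.4 and 28.5 FPKM in controls. All 7 knockouts were above the control mean, and 4 of 7 were above every control. The log2 fold change was 0.31 ± 0.11 (limma adjusted p = 0.489), and with the letters as a term it was 0.49 and passed (adjusted p = 0.0441, range over the alternatives 0.0441 to 0.857). Within the NZ and OB libraries it was 0.39 and 0.60, and neither passed.

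Kera had the widest spread in FPKM, with a lowest value of 33.8, a median of 73.1 and a highest of 115 FPKM in knockouts, against 117, 81.8, 52.7, 91.9 and 87.9 FPKM in controls. Chodl had a lowest value of 24.5, a median of 31.0 and a highest of 35.1 FPKM in knockouts, against 29.4, 30.5, 13.9, 37.3 and 31.0 FPKM in controls. In both genes the groups overlapped, and control replicate 3 was the lowest control. The log2 fold change was -0.24 ± 0.29 for Kera (95% interval -0.84 to 0.37) and 0.14 ± 0.22 for Chodl (-0.31 to 0.60), with a limma adjusted p of 1 for both. The transcription factors had the narrowest intervals: Scx had 48.4 to 63.8 FPKM in knockouts (median 59.4) against 69.7, 65.0, 65.7, 51.8 and 58.8 FPKM in controls, a log2 fold change of -0.11 with a 95% interval from -0.29 to 0.065. Mkx had 16.0 to 23.2 FPKM in knockouts (median 19.3) against 20.6, 20.47, 20.1, 18.5 and 21.7 FPKM in controls, a log2 fold change of -0.044 with a 95% interval from -0.23 to 0.14. Both knockout groups overlapped their controls.

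Conditional heterozygotes scattered widely. In heterozygote libraries 1 to 5, Tnmd had 21.98, 36.9, 3.92, 12.9 and 7.30 FPKM, Thbs4 had 25.2, 16.5, 4.49, 15.9 and 7.90 FPKM, and Thbs2 had 14.9, 16.3, 3.86, 9.75 and 6.99 FPKM. Replicate 3 (OB) was the lowest heterozygote for 7 members and the highest for Scx, at 67.2 FPKM, and replicate 2, the only OA library, was the highest for 6 members. Control replicate 3 (OB) was likewise the lowest control for 6 members, at 65.7 FPKM of Scx. Heterozygote ranges of the other members were 53.4 to 67.2 FPKM for Scx, 18.5 to 25.2 for Mkx, 19.4 to 31.2 for Fmod, 40.8 to 114 for Kera and 12.8 to 33.9 for Chodl. In heterozygote against control 0 of 8 members were called, where 1 of 12918 genes was (0.00774%; that gene is Hic1), and none passed at an unadjusted p under 0.05. No member was clear of the control range, where 0.294% of all genes lay below it and 0.224% above. Their log2 fold changes ran from -0.55 ± 0.36 for Thbs4 to 0.068 ± 0.12 for Fmod. In knockout against heterozygote 0 of 8 were called, where 10 of 12918 genes were (0.0774%; 0.0542% higher and 0.0232% lower), and Fmod alone had an unadjusted p under 0.05 (0.24 ± 0.11, limma adjusted p = 0.930). No member was clear of the heterozygote range, where 0.132% of all genes lay below it and 0.209% above.

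The effects of the 2 strategies were then compared directly, as the conventional knockout effect minus the conditional knockout effect. Each strategy had its own control or wild type libraries, so the 2 effects share no sample. The fit did share 1 spread per gene over all 26 libraries, although the spread differed between the tables. The difference was negative for 7 of 8 members, with Scx the exception, and for 52.3% of all genes. Of the members 0 of 8 passed, where 1 of 12557 genes did (0.00796%). Chodl had the smallest p among the members: its fold change was -1.13 in the conventional and 0.14 in the conditional strategy, a difference of -1.27 ± 0.43 (limma adjusted p = 0.422). Tnmd had -1.39 and -0.022, a difference of -1.37 ± 0.77 with a 95% interval from -2.96 to 0.22. Thbs2 had -1.09 and -0.24, a difference of -0.85 ± 0.46. Thbs4 had -1.64 and -1.13, a difference of -0.51 ± 0.54 with an interval from -1.63 to 0.60. Mkx (-0.57 ± 0.27) and Chodl were the members with an unadjusted p under 0.05, against 9.21% of all genes. For Mkx the SE of the conventional effect in its own table was 0.32, larger than that of the difference. The shared spread thus understates the conventional part for Mkx, and its p-value in this fit is too small to that extent. So the data neither show that these members respond differently to the strategies nor that they respond alike.

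These differences depended on single libraries and on the letters. Without conventional knockout replicate 3, Mkx and Chodl passed (-0.81 and -1.57, limma adjusted p = 0.0468 for both) among 2219 genes called. The fit with all libraries tested 12557 genes and called 1, so passing without replicate 3 was common and not particular to Mkx and Chodl. Without replicate 1, Mkx and Chodl were at -0.13 and -0.75 with none of the members passing. With the letters as a term, Tnmd (-2.26, adjusted p = 0.0445), Thbs2 (-1.39, 0.0377) and Chodl (-1.65, 0.0337) passed among 291 of 12557 genes called.

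**Figure D3:**
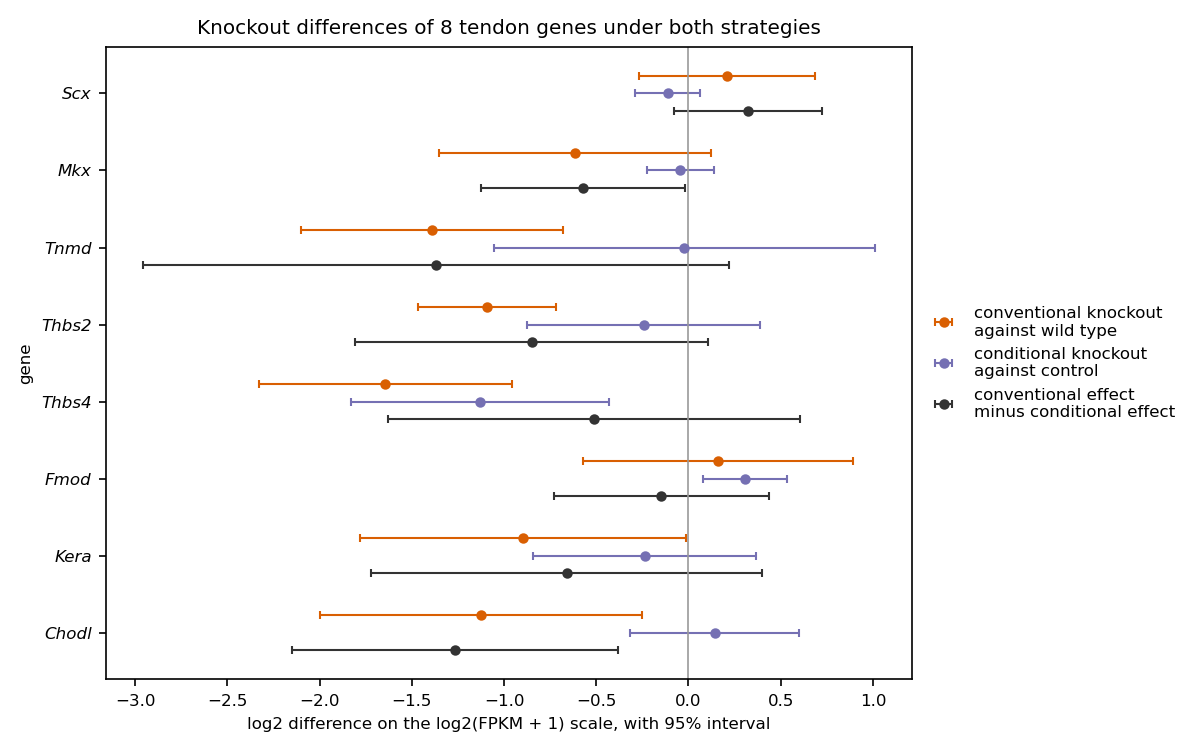
Log2 differences on the log2(FPKM + 1) scale (x axis) with 95% intervals for each member (y axis): conventional knockout against wild type, conditional knockout against control, and the first effect minus the second. For Thbs4 both knockout intervals lie below 0 (-1.64 and -1.13), while for Tnmd and Chodl the conditional estimates are at -0.022 and 0.14. The intervals are not adjusted for the number of genes, and no member was called in any of these comparisons.

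Genes upstream and around the members were read from lists. The lists too were chosen with earlier results of these data known, so their shares and medians beside those of all genes are descriptions. Of 16 tendon signals (TGF-beta, FGF and GDF ligands, receptors and effectors), 14 were tested and 0 called in either knockout comparison. Their median log2 fold change was 0.044 in the conventional knockout against wild type (all genes -0.018) and 0.039 in the conditional knockout against control (all genes 0.0062). Fgf8, a ligand of the apical ectodermal ridge, had 2.87 ± 0.101 FPKM in conventional knockouts and 1.07 ± 0.282 FPKM in wild type (SD, n = 3 each; log2 fold change 0.91, limma adjusted p = 0.256). Etv4, an FGF target, had 18.1 ± 5.93 FPKM in conventional knockouts and 11.5 ± 0.437 FPKM in wild type (0.58, adjusted p = 0.596). Smad3, a TGF-beta effector, had 39.2 ± 1.81 FPKM in conditional knockouts (n = 7) and 34.9 ± 1.85 FPKM in controls (n = 5; 0.16, adjusted p = 0.412).

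Of 11 other transcription factors linked to tendon, 10 were tested and 0 called in either comparison. In the conventional knockout 5 of 10 had a negative fold change (median -0.025), with Six2 at 46.0 ± 12.7 FPKM against 32.9 ± 2.73 FPKM in wild type (0.44) and Irx3 at 6.99 ± 1.51 FPKM against 9.73 ± 0.798 FPKM in wild type (-0.44; limma adjusted p = 0.596 for both). In the conditional knockout 3 of 10 were negative (median 0.061), and Ebf3 had 59.6 ± 5.63 FPKM against 51.6 ± 3.39 FPKM in controls (0.20, adjusted p = 0.392).

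Of 26 fibril and matrix genes, 23 were tested in the conventional table and 24 in the conditional table, and 0 were called in either. In conventional knockouts 22 of 23 had a negative fold change, with a median of -0.47 against -0.018 over all genes, and 11 of 23 had an unadjusted p under 0.05, all with a negative fold change, against 7.06% of all genes. Col12a1, a collagen on fibril surfaces, had 48.4 ± 4.44 FPKM in knockouts and 74.2 ± 3.67 FPKM in wild type (-0.61 ± 0.11, limma adjusted p = 0.207). Col5a2, a chain of the collagen that seeds fibrils, had 103 ± 12.7 FPKM in knockouts and 149 ± 6.43 FPKM in wild type (-0.53). Dcn, the decorin gene, had 27.8 ± 12.5 FPKM in knockouts and 71.0 ± 7.39 FPKM in wild type (-1.43). In conditional knockouts 21 of 24 were negative, with a median of -0.20 against 0.0062 over all genes, and 2 of 24 had an unadjusted p under 0.05, a share near the 6.21% of all genes. Their values were as follows: Aspn, the asporin gene, had 16.6 ± 6.11 FPKM in knockouts against 31.5 ± 8.75 FPKM in controls (-0.91 ± 0.31, adjusted p = 0.460), and Col6a1 had 65.0 ± 13.1 FPKM in knockouts against 89.4 ± 17.98 FPKM in controls (-0.46). Without conventional knockout replicate 1 the matrix median was -0.56, with 23 of 23 negative, and the members' own median was -0.50, against -0.996 with it, so the order of these medians turned.

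Closest relatives of the members were read too. Lect1, the chondromodulin gene and the nearest relative of Tnmd, had 33.5 ± 2.61 FPKM in conventional knockouts and 69.3 ± 6.09 FPKM in wild type (-1.03 ± 0.19, limma adjusted p = 0.256), and 35.6 ± 13.4 FPKM in conditional knockouts against 51.6 ± 19.3 FPKM in controls (-0.50 ± 0.33). Lum, the lumican gene and a relative of Kera, had 59.3 ± 33.7 FPKM in conventional knockouts and 105 ± 18.1 FPKM in wild type (-1.01 ± 0.47). Thbs3 had 19.3 ± 1.44 FPKM in conditional knockouts against 23.8 ± 2.71 FPKM in controls (-0.28 ± 0.088, adjusted p = 0.340), and Thbs1 had 64.7 ± 9.79 FPKM in conventional knockouts against 71.7 ± 1.19 FPKM in wild type (-0.16 ± 0.12). None of the relatives was called, and 8 of 8 tested were negative in the conventional (median -0.28) and 7 of 9 in the conditional knockout (median -0.17). Over all genes tested, 52.2% were negative in the conventional and 46.2% in the conditional knockout. Comp, Lum, Prelp and Omd of this list are also among the fibril and matrix genes, and Lect1 is also a cartilage marker, so the lists are not separate.

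**Figure D4:**
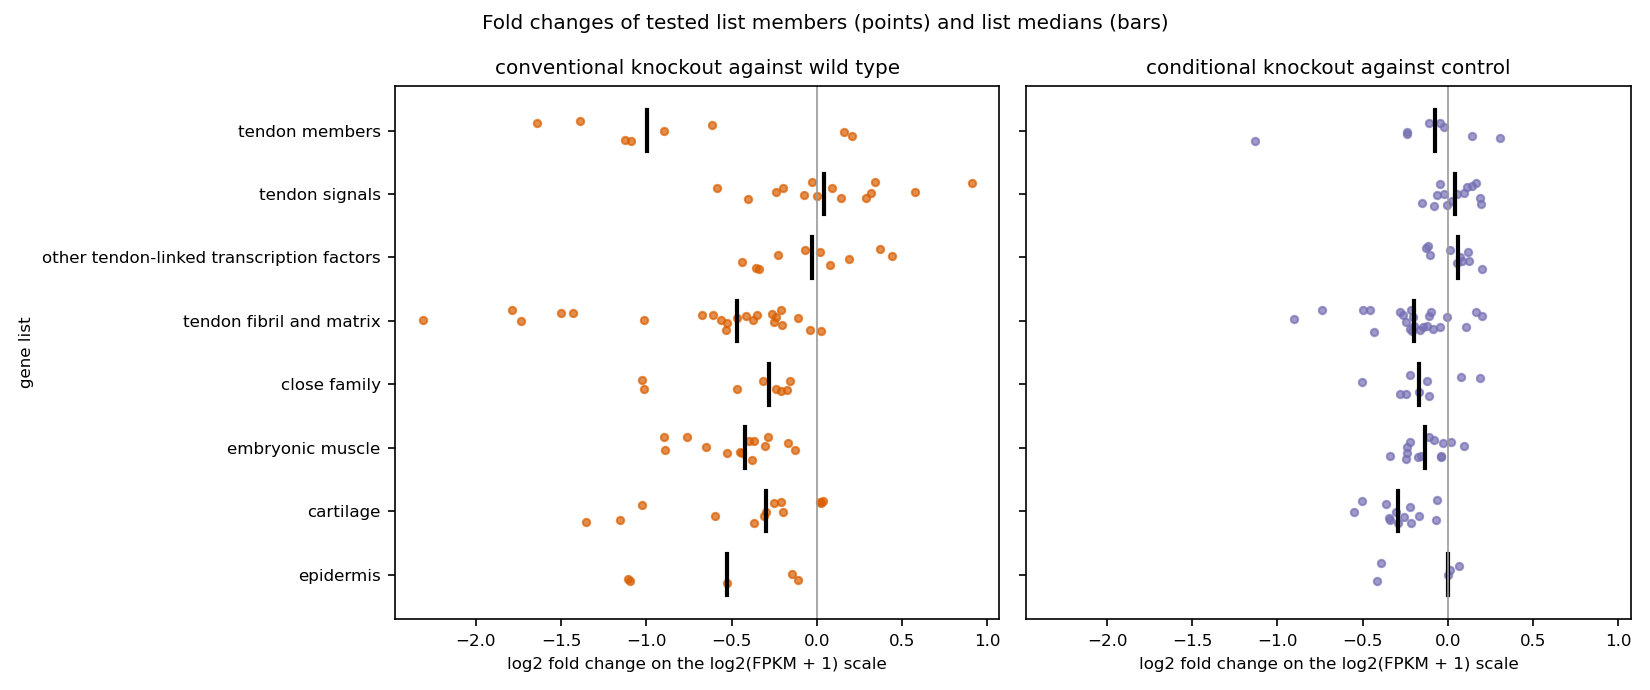
Log2 fold changes on the log2(FPKM + 1) scale (x axis) of the tested genes of each list (y axis), with 1 point per gene and a black bar at the list's median, for conventional knockout against wild type (left) and conditional knockout against control (right). The members' median is -0.996 on the left and -0.078 on the right, and the fibril and matrix medians are -0.47 and -0.20; without conventional knockout replicate 1 the left medians are -0.50 for the members and -0.56 for the matrix genes.

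None of the markers of other cell types was called in the conventional table, and their part in the members' values was not tested. All 14 embryonic muscle markers had a negative fold change (median -0.42), and their summed level ran from 1055 to 1727 FPKM in knockouts against 1476 to 1736 FPKM in wild type, with knockout replicate 1 the highest knockout. Without it the muscle median was -0.62, against -0.0014 over all genes. With it, 6 of 14 had an unadjusted p under 0.05, against 7.06% of all genes. Of 13 cartilage markers 10 were negative (median -0.30), with sums of 1148 to 1819 FPKM in knockouts against 1472 to 1522 FPKM in wild type. All 5 epidermal markers were negative (median -0.53), with sums of 204 to 360 FPKM in knockouts against 258 to 317 FPKM in wild type. Of 4 neuronal markers 3 were negative, with sums of 10.1 to 12.7 FPKM in knockouts against 14.5 to 17.2 FPKM in wild type. All 3 primitive erythroid markers were positive (median 0.92), with sums of 2555 to 5590 FPKM in knockouts against 2139 to 2440 FPKM in wild type. The summed tendon markers (Scx, Tnmd and Mkx) ran from 72.9 to 93.3 FPKM in knockouts against 79.1 to 95.2 FPKM in wild type. Sums overlapped for irregular connective tissue (2 of 5 negative; 175 to 220.2 FPKM in knockouts against 178 to 194 FPKM in wild type), endothelium (2 of 4 negative; 66.0 to 80.5 FPKM in knockouts against 69.8 to 85.0 FPKM in wild type) and myogenic progenitors (2 of 4 tested negative; 102 to 184 FPKM in knockouts against 116 to 137 FPKM in wild type).

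In the conditional table the sums overlapped for muscle (823 to 2562 FPKM in knockouts against 1614 to 2383 FPKM in controls), cartilage (407 to 901 FPKM in knockouts against 532 to 1052 FPKM in controls), epidermis (262 to 537 FPKM in knockouts against 237 to 515 FPKM in controls) and the tendon markers (91.1 to 106 FPKM in knockouts against 89.5 to 113 FPKM in controls). All 13 cartilage markers had a negative fold change (median -0.29), as did 12 of 14 muscle markers (median -0.13). Nefm, a neurofilament gene, fell to 2.03 ± 0.318 FPKM in conditional knockouts, against 3.57 ± 0.336 FPKM in controls (-0.60 ± 0.10, limma adjusted p = 0.0154), and the neuronal sums were 10.6 to 14.2 FPKM in knockouts against 14.1 to 16.3 FPKM in controls. The other lists had 0 genes called: 3 of 5 epidermal, 3 of 5 irregular connective tissue, 4 of 4 endothelial, 2 of 4 myogenic progenitor and 0 of 3 primitive erythroid markers were negative. Sums overlapped for irregular connective tissue (152 to 183 FPKM in knockouts against 162 to 183 FPKM in controls), endothelium (58.2 to 85.5 FPKM in knockouts against 75.6 to 91.3 FPKM in controls), myogenic progenitors (77.3 to 194 FPKM in knockouts against 133 to 163 FPKM in controls) and primitive erythroid cells (2630 to 4562 FPKM in knockouts against 2560 to 4196 FPKM in controls). No marker was at 0 in any group of either table. The part of these markers in the conditional values was not tested.

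The genes whose levels went most closely with Tnmd across libraries were taken by the smaller of 2 Pearson coefficients of log2(FPKM + 1), over the 9 conventional and over the 17 conditional libraries, among 12556 genes. They were Krtdap (0.936), Klf4 (0.933), Cd9 (0.932), the member Thbs2 (0.922) and Nov (0.919). Krtdap and Klf4 are known from differentiating epidermis. The summed epidermal markers followed Tnmd in some libraries and not in others. Among controls the sum was lowest in replicate 3 (237 FPKM, with 3.66 FPKM of Tnmd) and highest in replicate 4 (515 FPKM, with 36.4 FPKM of Tnmd). Conventional knockout replicate 1 had the highest conventional sum, 360 FPKM, with the lowest Tnmd, 3.44 FPKM, and conditional knockout replicate 6 had 537 FPKM with 14.8 FPKM of Tnmd. The epidermal markers in that sum moved unequally in conventional knockouts. Krt10 had 3.30 ± 0.738 FPKM against 8.34 ± 2.04 FPKM in wild type (log2 fold change -1.11, limma adjusted p = 0.329). Krt1 had 3.44 ± 1.56 FPKM against 8.21 ± 1.41 FPKM in wild type (-1.10, adjusted p = 0.527). The more abundant Krt14 had 92.7 ± 38.3 FPKM against 97.9 ± 12.1 FPKM in wild type (-0.14). The part of epidermis in the Tnmd values was not tested. For Scx the coefficients were lower, and the nearest genes were Csrp2 (0.723), Capn10 (0.712), Panx1 (0.704), Coq7 (0.688) and Ctnnbl1 (0.686). Libraries share genotype groups and column letters, so these coefficients are descriptions.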

How the data were processed

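Polyadenylated RNA from E13.5 forelimbs was extracted with RNAzol and made into stranded mRNA libraries, per the labels' protocols. The authors deposited FPKM values per gene in 2 tables, 1 per strategy. The submitters' processing notes name bcl2fastq, TopHat2, Bowtie2, Cufflinks and the build mm10; versions and the strand setting of the counting are not given in the sources used here.

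Columns were matched to samples by name, with 0 value columns unused. Dates in place of gene symbols were restored for 27 genes of the conditional table, and 1 empty line per table was dropped. Testing was limited to genes averaging 1 FPKM or more, as log2(FPKM + 1) with limma 3.58.1 in R 4.3.3 (3 groups of a table in 1 fit, mean-variance trend). P-values were adjusted by Benjamini-Hochberg over all genes tested, with a threshold of 0.05 and intervals of 95%. The 2 knockout effects were compared in a fit over both tables, with 1 spread per gene shared by all 26 libraries. The fit was also run on simulated data with independent noise for each gene and library. That simulation held no column letters and no library that stood apart, so it does not bear on either. Gene positions are from a GENCODE annotation of mm10 and promoter windows from RefSeq, which matched 6 of the 8 members.

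Absolute depth is unknown, since the deposited values hold no counts; values under 0.1 FPKM step in whole fragments and gave relative depth only. No pair of libraries held identical values. In the conventional table, same-numbered libraries deviated together from their group means in 9 of 9 pairs (r from 0.244 to 0.717). Of pairs with different numbers, 6 of 18 had r over 0.1. By column letters, 15 of 15 pairs with the same letters had r over 0.1, against 0 of 12 pairs across letters. The number follows the letters, so a pairing by number was not shown apart from them. It was fitted as a block in an alternative.

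The members and the gene lists were chosen with earlier results of these data known. Named beside the 8 members and Hic1 were up to 4 genes per list with the smallest p in each knockout comparison, any called ones, and the 5 genes most like Tnmd and Scx. The lists cover tendon signals, other tendon-linked transcription factors, fibril and matrix genes, close family, and markers of muscle, myogenic progenitors, cartilage, irregular connective tissue, epidermis, neurons, endothelium, primitive erythroid cells and tendon. Alternatives were other pseudocounts, minimum levels, scalings, library weights, a replicate block, the column letters as a term, the 2 groups of a comparison alone, leaving out each library and, chosen after seeing the data, the CL, NZ and OB libraries alone.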

Additional observations from a re-analysis of the deposited data

How the results depend on the processing

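Counts are genes called by limma, and values are log2 fold changes of members. Under the alternatives 1374 values kept their direction and side of the threshold, 69 turned sign and 13 newly passed. The first count includes fits whose fold change could not move. Such fits left out a library outside the comparison or took the 2 groups alone. Where a value changed, the cause was not tested. Median-of-ratios scaling changed no call. With 3 to 7 libraries a group, the intervals of uneven members such as Tnmd in the conditional table were wide. No limit of detection was computed.

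With library weights, calls numbered 980 in conventional knockout against wild type (5 members), 1 in heterozygote against wild type, 36 in knockout against heterozygote (1 member, Thbs4), 122 in conditional knockout against control, 29 in conditional knockout against heterozygote and 350 in the difference between strategies; Fmod turned to -0.085 and -0.33 in conventional knockout against wild type and against heterozygote and to -0.011 in conditional heterozygote against control, and Scx to -0.064 in conventional knockout against heterozygote. With the letters as a term, calls were 8 in conventional knockout against wild type, 0 in conditional heterozygote against control and 291 in the difference (3 members), and 1 member, Fmod, passed in conditional knockout against control, where Tnmd was 0.87, Thbs2 0.30 and Kera 0.047. In conditional heterozygote against control Mkx was -0.052, Tnmd 0.11, Thbs2 0.060 and Chodl 0.016, and in knockout against heterozygote Mkx was 0.0056.

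Within CL, 1 gene was called in heterozygote against wild type, where Tnmd was 0.035; Fmod was -0.053 and -0.32 in knockout against wild type and against heterozygote, and Scx -0.095 in the second. Within NZ, calls were 18 in knockout against control (Tnmd 0.0092, Thbs2 0.14) and 8 in heterozygote against control (Mkx -0.13, Thbs2 0.17, Thbs4 0.23), and in knockout against heterozygote Mkx was 0.12 and Thbs2 -0.030. Within OB, calls were 6 in knockout against control (Tnmd 1.84, Thbs2 0.43, Kera 0.27), 4 in heterozygote against control (Mkx -0.021, Tnmd 0.83, Thbs2 0.094, Chodl 0.42) and 4 in knockout against heterozygote.

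A minimum of 5 FPKM gave 17 calls in conditional knockout against control and 5 against heterozygote. No minimum gave 1 in conventional knockout against wild type and 0 in conditional heterozygote against control. A pseudocount of 0.1 gave 0 in conditional heterozygote against control, Fmod -0.0015 in conventional knockout against heterozygote and Tnmd 0.0046 in conditional knockout against control. Quantile normalization gave 5 calls in conventional knockout against wild type, 6 in conditional knockout against heterozygote and 2 in the difference, and Fmod -0.068 in conventional knockout against heterozygote. The 2 groups alone gave 1 call in conventional knockout and 2 in heterozygote against wild type.

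With the replicate block, calls were 1 in conventional knockout against wild type and 0 in conditional heterozygote against control; no call of a member changed. Of same-numbered conditional pairs, 4 of 15 correlated over 0.1, and of pairs with different numbers 21 of 80 did. A pairing by number was therefore not shown there. Under the block Mkx was 0.032 and Tnmd 0.093 in conditional knockout against control, and Mkx 0.013 against heterozygote.

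Leaving out each library gave 1 to 6 calls in conventional knockout against wild type (0 to 1 member; 6 with Thbs4 without knockout 1, and 1 without wild type 2 or heterozygote 1), 0 to 2 in heterozygote against wild type (2 without knockout 3, and 1 without wild type 1 or 3), 1 to 2 in knockout against heterozygote (2 without knockout 2), 17 to 46 in conditional knockout against control (17 without control 2, 20 without control 1), 0 to 1 in heterozygote against control (0 without any of controls 2 to 5 or heterozygotes 2 to 5), 5 to 17 in knockout against heterozygote (17 without knockout 4, 6 without heterozygote 4 and 5 without heterozygote 1), and 0 to 2219 in the difference (0 to 2 members; 2219 without conventional knockout 3, 3 without conventional knockout 1, 2 without conventional heterozygote 3, conditional heterozygote 2 or conditional knockout 4, and 0 without conventional wild type 1 or knockout 2). Conventional knockout against wild type ran from -0.026 to 0.37 for Scx and -0.23 to 0.37 for Fmod, and against heterozygote from -0.16 to 0.23 for Scx and -0.39 to 0.21 for Fmod. Heterozygote against wild type ran from -0.060 to 0.027 for Mkx, -0.49 to 0.14 for Tnmd, -0.20 to 0.056 for Kera and -0.19 to 0.041 for Chodl. The difference for Fmod ran from -0.54 to 0.060. Conditional knockout against control ran from -0.083 to 0.0021 for Mkx, -0.53 to 0.22 for Tnmd and -0.085 to 0.25 for Chodl (lowest for Tnmd and Chodl without control 3). Conditional heterozygote against control ran from -0.050 to 0.056 for Mkx and -0.024 to 0.15 for Fmod, and knockout against heterozygote from -0.10 to 0.0063 for Mkx, -0.19 to 0.27 for Thbs2 and -0.030 to 0.33 for Kera.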
